A study of Caenorhabditis elegans with 36 samples.

Results

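The genes described here are pud-3 (WBGene00017501) and pud-4 (WBGene00017498) on chromosome V, and drd-1 (WBGene00009902), F49E12.10 (WBGene00009903) and dod-23 (WBGene00009898) on chromosome II, 5 of the 46778 gene identifiers counted in each library. They were picked as linked genes with higher levels in animals given krill oil, so they were chosen by the differences of krill oil against control, which are given as a description, without a test. In WBcel235, pud-3 spans chrV:2324634-2325152 on the minus strand and pud-4 spans chrV:2326678-2327282 on the plus strand, so they are transcribed away from each other across 1525 bp. The gene drd-1 spans chrII:8388051-8389891 and F49E12.10 spans chrII:8391051-8392283, both on the plus strand and 1159 bp apart, and dod-23 spans chrII:8398161-8399164 on the minus strand, 5877 bp beyond F49E12.10. Exons cover 519 bp of pud-3, 564 bp of pud-4, 1296 bp of drd-1, 965 bp of F49E12.10 and 741 bp of dod-23.

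RNA was taken from whole adult hermaphrodites of Caenorhabditis elegans strain BY273 (PD animals) and strain N2 (wild type). PD animals carry an integrated transgene that drives GFP and human α-synuclein from the dat-1 promoter in dopaminergic neurons, and the genotype field of the sample labels reads wild type for both strains, so the strain name sets them apart. Animals were placed at the L4 stage on plates with krill oil at 0.5 μl per ml, or on the same medium without it (control), and were collected as adults of day 1, 3 and 6, without FdUrd. The 12 groups are PD krill oil, PD control, wild type krill oil and wild type control, each at day 1, 3 and 6, with 3 libraries per group and 36 in all.

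The PUD proteins are small proteins of C. elegans named for their higher abundance in mutants of the insulin receptor gene daf-2. The dod genes were named as targets downstream of the FOXO transcription factor DAF-16, which insulin signalling holds back, and the drd genes for lower expression under dietary restriction. F49E12.10 has a sequence name only. Krill oil is rich in phospholipids that carry long omega-3 fatty acids.

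The total count was 16488713 to 34605080 per library (median 24785463). Ribosomal RNA made up 5.31 to 24.5% of it, with 24.5% in PD krill oil day 1 replicate 3 and 23.5% in wild type control day 6 replicate 3. All 5 genes were detected in every library, with at least 14 counts, and all 5 passed the filter on low counts in every comparison. Levels are CPM, counts scaled to the size of the library on a common TMM scale, and are compared between genes only after division by exon length in kb. The labels number the replicates without saying whether they came from separate cultures, so p-values set a difference against the spread between these libraries only. In RNA of whole animals, fewer cells of a type and less RNA per cell cannot be told apart. Marker lists of intestine, hypodermis, neurons, molting and oocytes had no gene at 0 in any group.

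A pair of libraries stood apart from the other libraries of their groups in these genes. In wild type control day 3 replicate 3, F49E12.10 stood at 10.4 CPM, against 0.785 and 0.653 CPM in the other two replicates, and pud-3, pud-4 and drd-1 were also at their highest of that group. This library also held 35.0 CPM of the carnitine palmitoyltransferase gene cpt-5, against 13.2 and 14.4 CPM. In wild type control day 1 replicate 3, drd-1 stood at 12.1 CPM, against 34.3 and 35.9 CPM. Results that rest on these libraries are given with and without them.

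At day 1, pud-3 was the gene that differed most in CPM between the diets. It had 115.1, 155 and 138 CPM in PD animals with krill oil, against 10.4, 8.98 and 9.90 CPM in PD controls. Wild type animals with krill oil had 189, 221 and 294 CPM, against 16.1, 14.5 and 11.8 CPM in wild type controls. The diets did not overlap in either strain, and the log2 fold changes were 3.80 (standard error 0.110) in PD animals and 4.06 (standard error 0.189) in wild type animals.

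At day 3 the difference was gone in PD animals, with 22.4, 24.7 and 29.2 CPM of pud-3 with krill oil, against 30.4, 28.6 and 28.9 CPM in controls (log2 fold change -0.21). In wild type animals pud-3 had 35.9, 34.1 and 42.5 CPM with krill oil, against 11.5, 14.1 and 37.1 CPM in controls (log2 fold change 0.83, and 1.54 without control replicate 3). At day 6 the strains went apart. PD animals had 82.3, 46.8 and 42.6 CPM with krill oil, against 5.91, 4.38 and 5.63 CPM in controls, with no overlap, at a log2 fold change of 3.46 (standard error 0.247). Wild type animals had 12.8, 26.3 and 19.8 CPM with krill oil, against 37.5, 39.9 and 32.7 CPM in controls, so that here krill oil libraries were the lower ones, at a log2 fold change of -0.89 (standard error 0.169).

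The neighbouring gene pud-4 differed between the diets in the same direction as pud-3 at each age in each strain. At day 1 it had 51.1, 75.9 and 74.7 CPM in PD animals with krill oil, against 3.81, 3.17 and 4.11 CPM in PD controls. Wild type animals with krill oil had 91.0, 108 and 139 CPM of pud-4, against 4.04, 4.78 and 4.50 CPM in controls. These are log2 fold changes of 4.18 (standard error 0.166) in PD animals and 4.65 (standard error 0.176) in wild type animals, with no overlap of the diets.

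At day 3, pud-4 had 16.7, 17.8 and 21.7 CPM in PD animals with krill oil, against 22.6, 22.3 and 19.6 CPM in PD controls, and the diets overlapped. The wild type libraries held 22.3, 22.9 and 21.6 CPM with krill oil, against 7.81, 8.96 and 20.6 CPM in controls, where control replicate 3 came close to the krill oil libraries (log2 fold change 0.82, and 1.39 without it). At day 6 it had 46.2, 28.1 and 28.1 CPM in PD animals with krill oil, against 7.33, 7.08 and 7.73 CPM in PD controls, a log2 fold change of 2.24 (standard error 0.184). Wild type animals at day 6 again went the other way. There pud-4 had 9.90, 19.4 and 11.8 CPM with krill oil, against 23.8, 24.8 and 24.0 CPM in controls, a log2 fold change of -0.81 (standard error 0.170).

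Among the 12 groups, pud-3 was highest in wild type animals with krill oil at day 1 (mean 234.6 CPM), then in the PD krill oil groups of day 1 (136.1 CPM) and day 6 (57.2 CPM), and the ranges of these groups did not overlap. Wild type krill oil day 3 and wild type control day 6 (means 37.5 and 36.7 CPM) overlapped, as did each neighbour in the order between PD control day 3 (29.3 CPM) and wild type control day 1 (14.1 CPM). PD control day 1 (9.77 CPM) and PD control day 6 (5.31 CPM) stood apart at the low end. For pud-4 the same 3 groups led without overlap, at 113, 67.3 and 34.1 CPM, followed by wild type control day 6 at 24.2 CPM. The lowest were wild type control day 1 (4.44 CPM) and PD control day 1 (3.70 CPM), which overlapped.

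**Figure D1:**
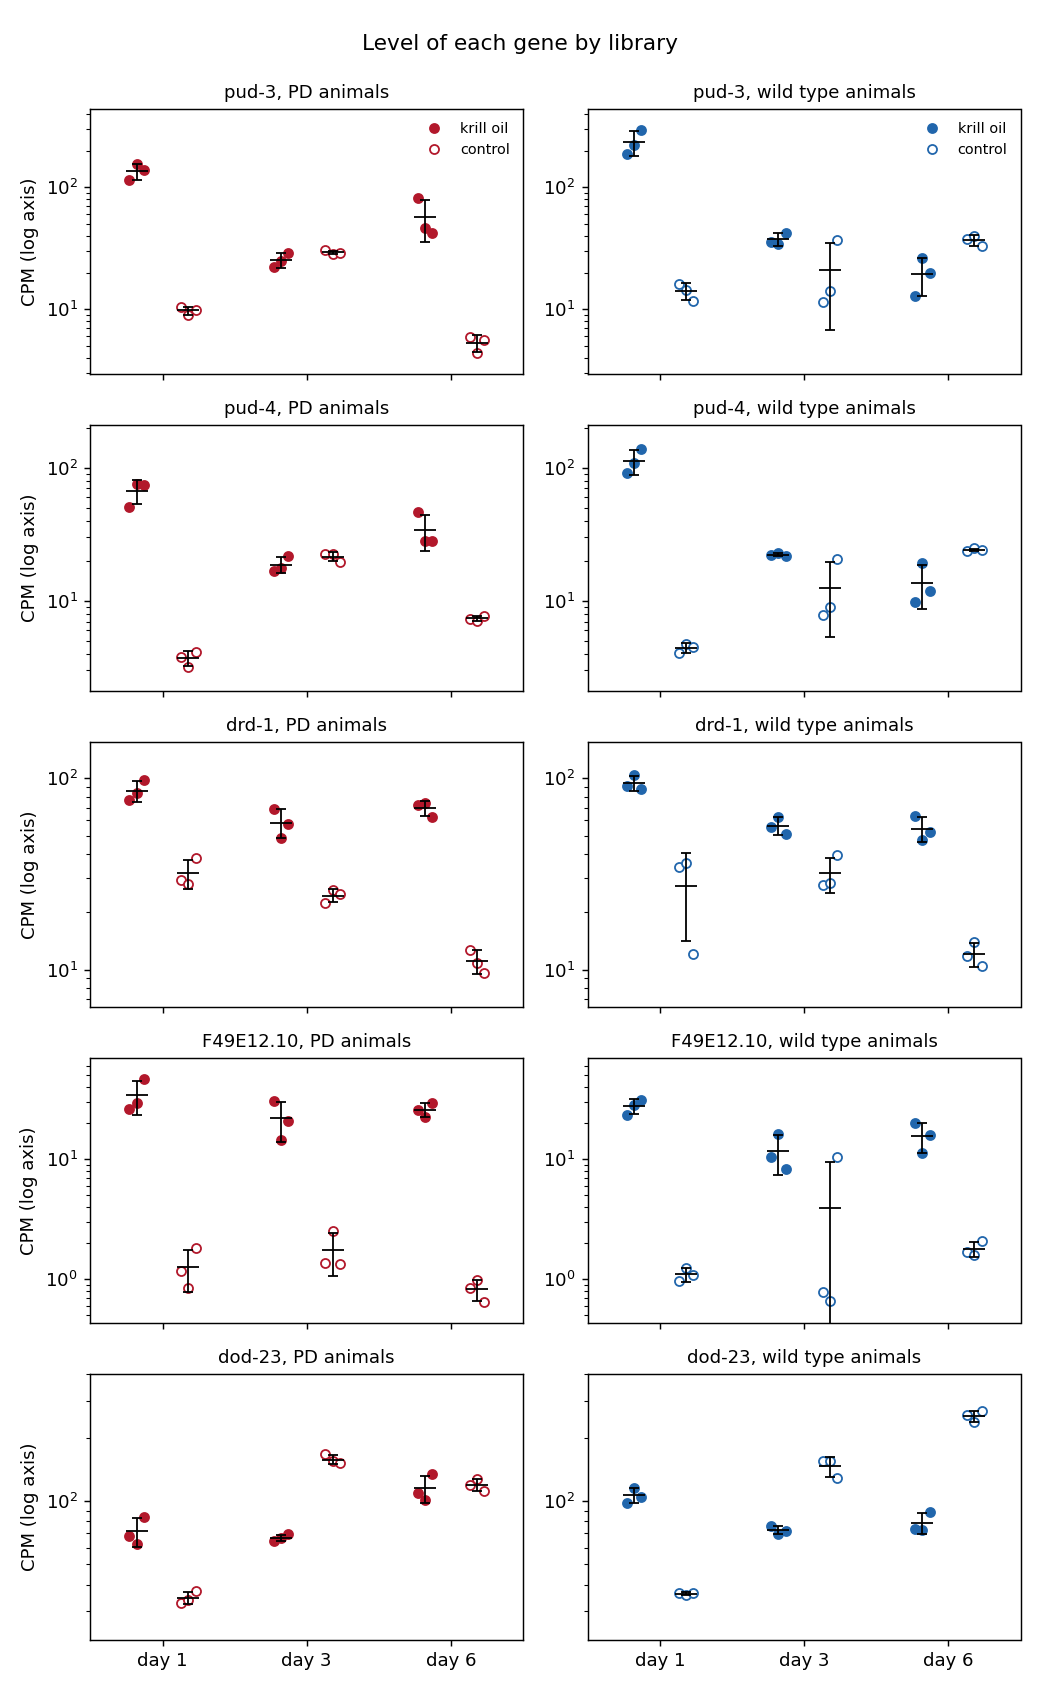
Level of each gene in CPM (log axis) at day 1, 3 and 6, in PD animals (left column, red) and wild type animals (right column, blue), with krill oil as filled and control as open points, 1 point per library. Bars give the mean and SD of 3 libraries, cut off where they pass below the panel, and the open point at 10.4 CPM of F49E12.10 is wild type control day 3 replicate 3.

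On chromosome II, drd-1 was the only one of the 5 genes for which all 18 krill oil libraries (47.4 to 103 CPM) lay above all 18 control libraries (9.56 to 39.4 CPM). These libraries chose the genes, and the share of all genes with such a separation was not counted, so it does not set drd-1 apart from other genes. At day 1 it had 76.5, 83.9 and 97.3 CPM in PD animals with krill oil, against 29.3, 28.1 and 38.2 CPM in PD controls. The wild type animals had 90.9, 103 and 87.3 CPM with krill oil at this age, against 34.3, 35.9 and 12.1 CPM in controls. The log2 fold changes were 1.43 (standard error 0.113) in PD animals and 1.78 (standard error 0.345) in wild type animals, and 1.42 in wild type animals without control replicate 3.

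At day 3, drd-1 had 69.1, 48.8 and 57.8 CPM in PD animals with krill oil, against 22.2, 26.0 and 24.8 CPM in PD controls (log2 fold change 1.26). In wild type animals at day 3 it had 55.6, 62.9 and 50.8 CPM with krill oil, against 27.7, 28.2 and 39.4 CPM in controls (log2 fold change 0.83, and 1.00 without control replicate 3). On the log2 scale the difference was largest at day 6, where the controls of both strains were low. PD animals at day 6 had 72.7, 74.1 and 62.5 CPM with krill oil, against 12.7, 10.9 and 9.56 CPM in controls, a log2 fold change of 2.69 (standard error 0.118). Wild type animals at day 6 had 63.3, 47.4 and 52.2 CPM with krill oil, against 11.8, 13.9 and 10.5 CPM in controls, a log2 fold change of 2.17 (standard error 0.111).

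The downstream neighbour of drd-1, F49E12.10, was close to silent without krill oil. It spanned 8.19 to 46.4 CPM over the 18 krill oil libraries, against 0.641 to 10.4 CPM over the 18 control libraries, and 0.641 to 2.53 CPM over the 17 controls other than wild type control day 3 replicate 3. At day 1 it had 26.3, 29.4 and 46.4 CPM in PD animals with krill oil, against 1.17, 0.841 and 1.80 CPM in PD controls. The wild type animals had 23.5, 28.4 and 31.3 CPM with krill oil, against 0.964, 1.24 and 1.07 CPM in controls. No diets overlapped here, and the log2 fold changes were 4.74 (standard error 0.271) and 4.64 (standard error 0.157) for PD and wild type animals.

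At day 3, F49E12.10 had 30.3, 14.5 and 20.7 CPM in PD animals with krill oil, against 1.36, 2.53 and 1.33 CPM in PD controls, a log2 fold change of 3.61 (standard error 0.290). In wild type animals at day 3 it had 10.3, 16.3 and 8.19 CPM with krill oil, against 0.785, 0.653 and 10.4 CPM in controls. The overlap there came from control replicate 3 alone, and the log2 fold change was 1.51 (standard error 0.751) with it and 4.01 (standard error 0.347) without it. At day 6, F49E12.10 had 25.5, 22.5 and 29.2 CPM in PD animals with krill oil, against 0.839, 0.978 and 0.641 CPM in PD controls, a log2 fold change of 4.98 (standard error 0.172). In wild type animals at day 6 it had 19.9, 11.2 and 15.8 CPM with krill oil, against 1.68, 1.599 and 2.06 CPM in controls, a log2 fold change of 3.15 (standard error 0.208). In the order of its 12 groups, the 6 krill oil means (11.6 to 34.0 CPM) came before the 6 control means (0.819 to 3.94 CPM), and every neighbour in that order overlapped. For drd-1 the order was the same in kind, with krill oil means of 54.3 to 93.8 CPM before control means of 11.03 to 31.9 CPM. Its lowest groups, wild type control day 6 and PD control day 6, overlapped each other and lay below every other group other than wild type control day 1, whose replicate 3 fell among them.

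The label of genes that rise with krill oil held for dod-23 at day 1 only. At that age it had 67.8, 62.7 and 84.2 CPM in PD animals with krill oil, against 32.8, 33.7 and 37.1 CPM in PD controls, a log2 fold change of 1.05 (standard error 0.0958). Wild type animals with krill oil had 98.2, 116 and 104 CPM, against 36.6, 35.5 and 36.5 CPM in controls, a log2 fold change of 1.55 (standard error 0.0612). The krill oil libraries were higher without overlap in both strains.

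At day 3 the order of the diets was turned round. PD animals had 64.5, 66.7 and 69.2 CPM of dod-23 with krill oil, against 166, 154 and 151 CPM in controls, a log2 fold change of -1.24 (standard error 0.0379). Wild type animals had 75.9, 69.8 and 71.6 CPM with krill oil, against 155, 155 and 128 CPM in controls, a log2 fold change of -1.01 (standard error 0.0787). Here the krill oil libraries were the lower ones in both strains, without overlap. At day 6, PD animals had 109, 101 and 134 CPM with krill oil, against 119, 127 and 111 CPM in controls, which overlapped (log2 fold change -0.02). Wild type animals at day 6 had 73.4, 72.8 and 88.8 CPM with krill oil, against 256, 237 and 267 CPM in controls, a log2 fold change of -1.68 (standard error 0.0658). Over all ages, dod-23 stayed within 62.7 to 134 CPM in the 18 krill oil libraries and spanned 32.8 to 267 CPM in the 18 control libraries. Wild type control day 6 was its highest group (mean 253 CPM) and did not overlap the next, PD control day 3 (157 CPM), and the day 1 controls of wild type animals (36.2 CPM) and PD animals (34.5 CPM) were its lowest and overlapped each other.

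**Figure D2:**
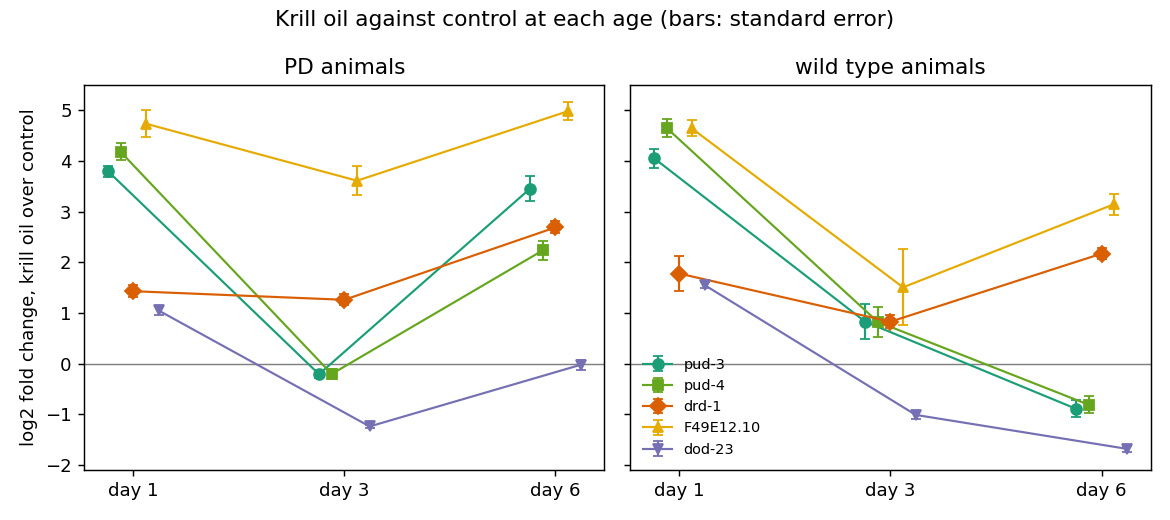
Log2 fold change of krill oil over control for the 5 genes at day 1, 3 and 6, in PD animals (left) and wild type animals (right), with bars of 1 standard error. Points of drd-1 and F49E12.10 lie above 0 at every age, whereas pud-3 and pud-4 lie at -0.21 in PD animals at day 3 and below 0 in wild type animals at day 6, and dod-23 lies above 0 at day 1 only.

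All 3 krill oil libraries thus lay above all 3 control libraries for 5 of the 5 genes at day 1 in each strain, where this held for 15.2% of all genes tested in PD animals and 15.2% in wild type animals. At day 3 it held for 2 genes in PD animals (28.1% of genes tested), drd-1 and F49E12.10, and for 2 in wild type animals (26.9%), pud-4 and drd-1. At day 6 it held for 4 genes in PD animals (29.8%), all but dod-23, and for 2 in wild type animals (32.4%), drd-1 and F49E12.10. These contrasts chose the genes, and the counts are given only to show at which ages the choice applies.

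The genes of each linked pair did not keep a fixed ratio of their levels per kb. The ratio of pud-3 to pud-4 had a median of 1.75 over the 36 libraries. At day 1 it averaged 2.22 ± 0.225 in PD animals with krill oil, 2.89 ± 0.240 in PD controls, 2.26 ± 0.0300 in wild type animals with krill oil and 3.49 ± 0.763 in wild type controls (SD, n = 3 each). At day 3 the means of the 4 groups were 1.47 to 1.84. PD controls at day 6, with 0.780 ± 0.102, were the only group in which pud-4 stood above pud-3, against 1.80 ± 0.140 in PD animals with krill oil of the same age.

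The ratio of drd-1 to F49E12.10 was lower in krill oil libraries (1.56 to 4.62) than in all but 2 of the 18 control libraries. It averaged 1.95 ± 0.335, 2.1 ± 0.405 and 2.06 ± 0.429 at day 1, 3 and 6 in PD animals with krill oil, against 19.8 ± 4.65, 11.2 ± 3.21 and 10.2 ± 1.66 in PD controls (SD, n = 3 each). In wild type animals it averaged 2.55 ± 0.425, 3.83 ± 0.887 and 2.66 ± 0.436 with krill oil, against 18.8 ± 9.37, 20.4 ± 15.5 and 5.16 ± 1.35 in controls. The controls within the krill oil range were wild type control day 3 replicate 3, at 2.83 where the highest of its group was 32.1, and wild type control day 6 replicate 3, at 3.79. Per kb, drd-1 was above F49E12.10 in all 36 libraries (1.56 to 32.1 times) and below dod-23 in all 36 (0.0225 to 0.766 times).

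**Figure D3:**
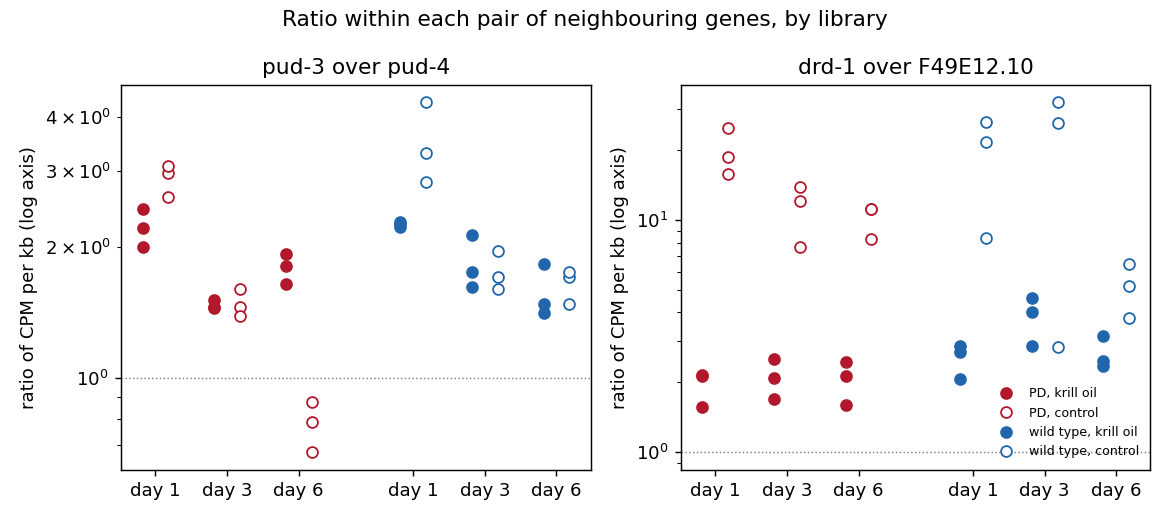
Ratio of CPM per kb of exon within each pair (log axis), pud-3 over pud-4 on the left and drd-1 over F49E12.10 on the right, 1 point per library, with PD animals in red and wild type animals in blue, krill oil filled and control open. The dotted line marks equal levels. PD controls at day 6 lie below it on the left (0.672 to 0.876), and on the right the krill oil libraries lie between 1.56 and 4.62.

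The protein-coding genes within 10 kb were set beside these regions at day 1. The other members of the PUD family, pud-1.2, pud-2.2, pud-2.1 and pud-1.1, flank pud-3 and pud-4 on both sides, and all 4 had krill oil libraries above control libraries in both strains at day 1. For pud-1.1 the mean was 10.9 CPM in PD animals with krill oil against 1.00 CPM in PD controls (log2 fold change 3.41), and for pud-2.2 it was 12.1 against 1.15 CPM (log2 fold change 3.38). The genes pud-1.2 and pud-2.1 were lower, at 2.09 and 1.33 CPM in PD animals with krill oil, against 0.270 and 0.167 CPM in PD controls, with log2 fold changes of 2.89 and 2.92. Between the controls of day 1, only 2 of these 4 genes passed the filter on low counts. Here pud-1.2 and pud-2.1 passed it through krill oil libraries, so the filter favoured a rise and their values add no support. As pud-1.1 with pud-1.2, and pud-2.1 with pud-2.2, are near-identical copies, the split of reads between copies is uncertain. On one side of this block, Y19D10B.6 had log2 fold changes of -0.95 in PD animals and -0.42 in wild type animals. On the other side, irld-32, irld-28 and irld-29 had at most 3 counts in any library of day 1, so no difference between the diets could be detected there.

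Around the chromosome II genes, F49E12.12, which precedes drd-1, had too few counts to be fitted in PD animals and a log2 fold change of -0.48 in wild type animals, where the diets overlapped. The peroxidase gene skpo-1, which follows dod-23, had log2 fold changes of 0.24 in PD animals and 0.18 in wild type animals at day 1. F49E12.8, which lies between F49E12.10 and dod-23, had too few counts to be fitted in PD animals at day 1 while in wild type animals it stood at 0.98 on the log2 scale (standard error 0.403), with no overlap. At day 3 it also stood above controls, with log2 fold changes of 1.30 in PD animals and 1.94 in wild type animals. F49E12.7, between F49E12.8 and dod-23, had too few counts in both strains. Further out, ubc-24 and sra-13 had at most 6 counts in any library of day 1.

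**Figure D4:**
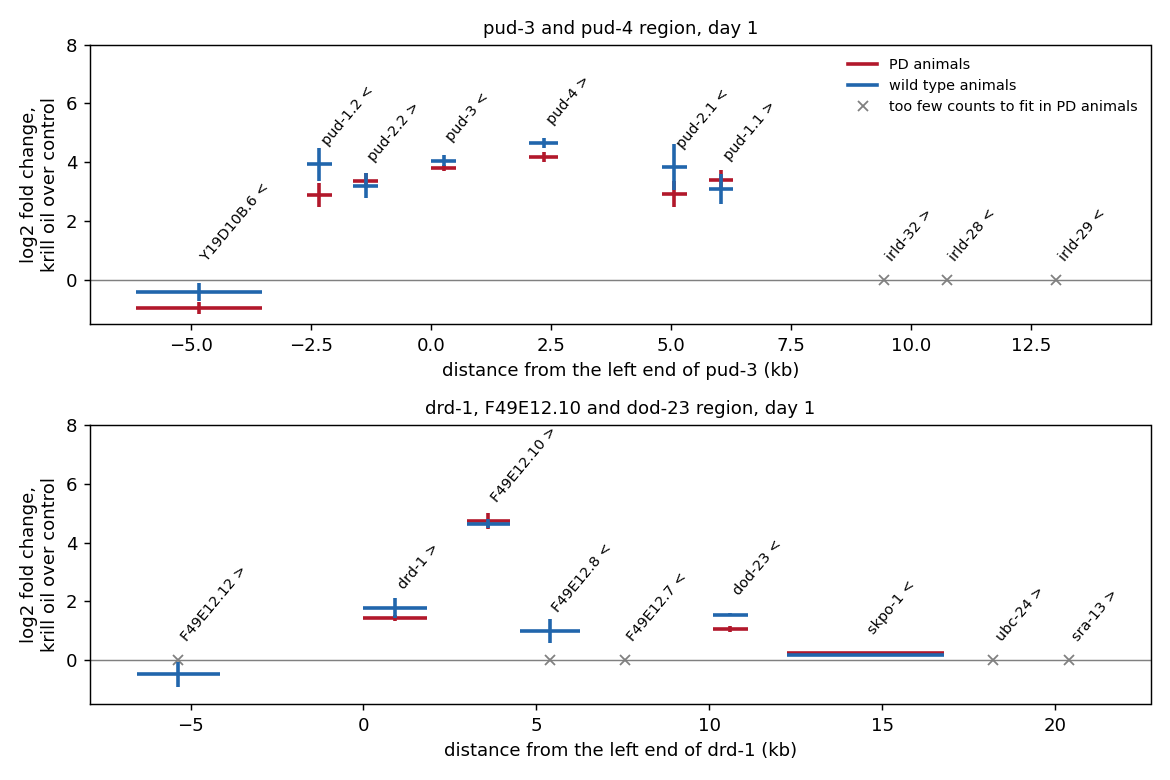
Log2 fold change of krill oil over control at day 1 for the protein-coding genes within 10 kb of pud-3 and pud-4 (top) and of drd-1, F49E12.10 and dod-23 (bottom), against distance in kb, in PD animals (red) and wild type animals (blue). Horizontal bars span each gene and vertical bars give 1 standard error. Crosses at 0 mark genes with too few counts to be fitted in PD animals, and the sign after a name gives the strand (> plus, < minus). The 6 PUD genes have values from 2.89 to 4.65. Of these, pud-1.2 and pud-2.1 passed the filter on low counts through their krill oil libraries.

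Change with age in controls was compared with edgeR's quasi-likelihood test, with p-values adjusted over all genes tested. The libraries of these comparisons, and of those between the strains, also took part in the differences of krill oil against control that chose the genes. A gene picked for low controls at day 1 is more likely to stand higher in controls of a later age, so the p-values are not independent of the choice. They set a difference against the spread between replicates and are no evidence about how these genes compare with others. In PD controls, pud-3, pud-4 and dod-23 rose between day 1 and day 3 and all 5 genes fell between day 3 and day 6. Between day 1 and day 3, 4 of the 5 genes passed the threshold, where 55.9% of all genes did. At day 3 dod-23 stood 4.55 times as high as at day 1 (log2 fold change 2.19, standard error 0.0517, adjusted p = 8.52e-11), pud-4 stood 5.81 times as high (2.54, standard error 0.101, adjusted p = 4.68e-09) and pud-3 stood 3.00 times as high (1.58, standard error 0.0687, adjusted p = 9.27e-09). The fall of drd-1 was small, at -0.39 (standard error 0.108, adjusted p = 0.00947), and it did not pass with all 36 libraries in 1 fit (adjusted p = 0.161). F49E12.10 had a log2 fold change of 0.47 (adjusted p = 0.234).

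Between day 3 and day 6, all 5 genes fell in PD controls, where 72.3% of all genes changed (37.7% lower). The loss was largest for pud-3, at -2.44 on the log2 scale (standard error 0.0874, adjusted p = 5.77e-11 by edgeR), followed by pud-4 at -1.52 (adjusted p = 1.43e-09) and drd-1 at -1.11 (adjusted p = 1.78e-07). F49E12.10 fell by 1.06 on the log2 scale (standard error 0.287, adjusted p = 0.00459), at levels of 0.641 to 0.978 CPM at day 6, and this did not pass with all 36 libraries in 1 fit (adjusted p = 0.226). The fall of dod-23 was -0.37 (adjusted p = 4.42e-06).

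In wild type controls, dod-23 rose at both steps and drd-1 fell at the second. Between day 1 and day 3, 2 of the 5 genes passed, both higher at day 3, where 7.27% of all genes were called higher. These were dod-23, at 2.01 on the log2 scale (standard error 0.0794, edgeR adjusted p = 4.26e-05), and pud-4, at 1.49 (standard error 0.359, adjusted p = 0.0319). The call for pud-4 was lost without either of 2 day 1 controls, replicate 1 (adjusted p = 0.106) or replicate 2 (adjusted p = 0.0888), and without day 3 replicate 2 (adjusted p = 0.0619). Without day 3 replicate 3 its log2 fold change was 0.91 (adjusted p = 0.015). The values of pud-3 (0.57), drd-1 (0.22) and F49E12.10 (1.87) did not pass. For these genes single libraries set the sign, as pud-3 stood at -0.14 and F49E12.10 at -0.61 without day 3 replicate 3, and drd-1 at -0.14 without day 1 replicate 3.

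Between day 3 and day 6 in wild type controls, 3 of the 5 genes passed, where 71.6% of all genes did. Here dod-23 rose by 0.76 on the log2 scale (standard error 0.0738, edgeR adjusted p = 6.2e-06), pud-4 rose by 0.90 (standard error 0.268, adjusted p = 0.0101, and 0.116 by DESeq2) and drd-1 fell by 1.43 (standard error 0.141, adjusted p = 7.17e-06). The value of pud-3 was 0.76 (adjusted p = 0.0509, and 0.0454 with RLE factors, 0.0172 with the replicate block and 0.0148 with all 36 libraries in 1 fit) and that of F49E12.10 was -1.27 (adjusted p = 0.175). Without day 3 replicate 3, all 5 genes passed, with pud-3 and pud-4 both at 1.46 (adjusted p = 5.74e-09 and 2.67e-09) and F49E12.10 at 1.24 (adjusted p = 0.000357), a turn of its direction.

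Levels in PD and wild type controls went apart between day 3 and day 6. The test of that difference between strains in the change with age passed for 3 of the 5 genes, where 79.3% of all genes passed. It gave -3.17 on the log2 scale for pud-3 (standard error 0.438, edgeR adjusted p = 7.11e-06), -2.40 for pud-4 (standard error 0.341, adjusted p = 9.67e-06) and -1.11 for dod-23 (standard error 0.0998, adjusted p = 5.92e-08), against a median of -0.33 over all genes. The value of drd-1 was 0.34 (adjusted p = 0.123, and 0.0346 with RLE factors and 0.0141 by DESeq2). F49E12.10 stood at 0.22 (adjusted p = 0.873) with all libraries and at -2.30 (adjusted p = 7.94e-05) without wild type control day 3 replicate 3. For the step between day 1 and day 3, no gene passed at 15.2% of all genes by edgeR, none by DESeq2, and 1, pud-4, had an unadjusted p under 0.05 (0.0277). Without wild type control day 3 replicate 3, pud-3 (1.69, adjusted p = 0.000591) and pud-4 (1.59, adjusted p = 0.000738) passed.

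Set against wild type controls of the same age, PD controls differed most at day 6, in these genes as over all genes. At that age 4 of the 5 genes were lower in PD controls, where 81.5% of all genes differed between the strains (44.3% lower). PD controls had 5.91, 4.38 and 5.63 CPM of pud-3, against 37.5, 39.9 and 32.7 CPM in wild type controls, a log2 fold change of -2.72 (standard error 0.107, edgeR adjusted p = 2.4e-11). The log2 fold changes of pud-4 (-1.65, adjusted p = 1.41e-10), dod-23 (-1.02, adjusted p = 1.91e-10) and F49E12.10 (-1.03, adjusted p = 0.000502) were also negative, with no overlap of the strains. That of F49E12.10 did not pass with all 36 libraries in 1 fit (adjusted p = 0.202). In drd-1 the strains overlapped (-0.06, adjusted p = 0.638), and its direction turned with RLE factors (0.04) and by DESeq2 (0.13). The median of all genes in this comparison was -0.15, and -0.05 with RLE factors, so drd-1 stood above it in both scalings.

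Marker genes of most tissues moved with this comparison, in both directions. Of the 7 intestine genes 6 were lower and 1 higher in PD controls at day 6, with a summed level of 605 to 665 CPM, against 1937 to 2091 CPM in wild type controls. All 6 molting genes were lower (65.6 to 80.1 CPM, against 401 to 407 CPM), as were all 5 muscle genes (1287 to 1387 CPM, against 2304 to 2463 CPM). Of the 5 neuron genes 4 were lower and 1 higher (222.5 to 231 CPM, against 302 to 323 CPM), and of the 6 hypodermis genes 3 were lower and 3 higher. All 6 germline genes were higher (1849 to 1897 CPM, against 1354 to 1446 CPM), as were all 8 oocyte and eggshell genes (9268 to 9530 CPM, against 7158 to 7505 CPM). No sperm gene had enough counts there.

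The summed level of the molting genes in PD controls was 83.2 to 92.6 CPM at day 1, 432 to 478 CPM at day 3 and 65.6 to 80.1 CPM at day 6, and pud-3 and pud-4 were likewise highest at day 3 in these animals. PD krill oil libraries of day 6 held 1173 to 1722 CPM of the intestine genes and 188 to 488 CPM of the molting genes. In wild type controls the molting sum (401 to 407 CPM), pud-3 and pud-4 were all highest at day 6. On krill oil the likeness to the molting genes did not hold in either strain. In PD animals with krill oil the molting sum was highest at day 3 (530 to 571 CPM), where pud-3 (mean 25.4 CPM) and pud-4 (18.7 CPM) were lowest. In wild type animals with krill oil it was also highest at day 3 (419 to 509 CPM), whereas pud-3 and pud-4 were highest at day 1. Marker genes also moved with the diets at day 1, where pud-3 and pud-4 differed most. Of the 6 molting genes 5 had all krill oil libraries above all controls in PD animals, with a sum of 124 to 245 CPM with krill oil, against 83.2 to 92.6 CPM in controls. In wild type animals 1 lay above and 1 below, with a sum of 190 to 371 CPM with krill oil, against 88.8 to 217 CPM in controls. All 5 muscle genes lay below their controls in both strains, with sums of 3602 to 4320 CPM in PD animals with krill oil, against 5247 to 5510 CPM in PD controls, and of 3482 to 3613 CPM in wild type krill oil libraries, against 3898 to 4586 CPM in wild type controls. The intestine sum in PD animals was 2974 to 3469 CPM with krill oil, against 2559 to 3085 CPM in controls, with 1 of 7 genes above and 2 below. In wild type animals it was 2346 to 2750 CPM with krill oil, against 1837 to 2050 CPM in controls, with no overlap. The hypodermis sum was 887.5 to 1102 CPM in PD animals with krill oil, against 1500 to 1709 CPM in PD controls, with 1 gene above and 1 below. The wild type hypodermis sums overlapped (919 to 967 CPM with krill oil, against 955 to 1246 CPM). Of all genes tested at day 1, 15.2% lay above their controls in this way in PD animals and 15.2% in wild type animals. The share that lay below is not given here. The part of these tissues in the results was not tested.

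At day 1, no gene of the 5 passed between the strains in controls by edgeR, where 6.87% of all genes did. The lowest value was that of pud-3, at -0.53 (standard error 0.131, unadjusted p = 0.00386, adjusted p = 0.0534), the 1 gene with an unadjusted p under 0.05 and the 1 gene called by DESeq2 (adjusted p = 0.0123). It also passed without wild type control day 1 replicate 3 (adjusted p = 0.00165). At day 3, 1 of the 5 genes passed, drd-1, where 38.7% of all genes did. It had 22.2, 26.0 and 24.8 CPM in PD controls, against 27.7, 28.2 and 39.4 CPM in wild type controls, a log2 fold change of -0.39 (standard error 0.129, edgeR adjusted p = 0.0361). The call was lost without any 1 of the PD controls, replicate 1 (adjusted p = 0.128), replicate 2 (adjusted p = 0.0519) or replicate 3 (adjusted p = 0.082), and with all 36 libraries in 1 fit (adjusted p = 0.189). Without wild type control day 3 replicate 3, 4 genes passed, with pud-3 at 1.16, pud-4 at 1.32 and F49E12.10 at 1.26 (adjusted p = 0.013) higher and drd-1 at -0.23 lower in PD controls.

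Between animals of both strains given krill oil, pud-3, pud-4 and dod-23 were called lower in PD animals at day 1 and higher at day 6. Whether the strain difference changed with age on krill oil was not tested. At day 1 these 3 genes were called lower in PD animals, where 3.57% of all genes differed between the strains (1.67% lower). The krill oil libraries took part in choosing the genes, so calls set beside these shares are no evidence that the genes stand apart from others. The log2 fold changes were -0.79 for pud-3 (standard error 0.152, edgeR adjusted p = 0.0278), -0.75 for pud-4 (standard error 0.171, adjusted p = 0.0464, and 0.0667 by DESeq2) and -0.58 for dod-23 (standard error 0.101, adjusted p = 0.0183). Each call is close to the threshold, and leaving out 1 library moved the number of genes called to 0 (without wild type krill oil replicate 2) or 1 (without any 1 of the 3 PD libraries). At day 3, pud-3 alone was called lower in PD animals, at -0.57 (standard error 0.107, edgeR adjusted p = 0.00672), where 13.7% of all genes differed (6.49% lower), and it did not pass with all 36 libraries in 1 fit (adjusted p = 0.213). The values of dod-23 (-0.13, edgeR adjusted p = 0.0895, without overlap) and pud-4 (-0.26, adjusted p = 0.1) were also negative.

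At day 6 the same 3 genes were called higher in PD animals with krill oil than in wild type animals with krill oil, where 1.19% of all genes differed (0.333% higher). As at day 1, the libraries took part in choosing the genes, so the share is no measure of how they compare with other genes. The levels of pud-3 were 82.3, 46.8 and 42.6 CPM in PD animals, against 12.8, 26.3 and 19.8 CPM in wild type animals, a log2 fold change of 1.54 (standard error 0.272, edgeR adjusted p = 0.0234). The value of pud-4 was 1.32 (standard error 0.250, adjusted p = 0.0349) and that of dod-23 was 0.56 (standard error 0.113, adjusted p = 0.0481). No gene passed without wild type krill oil replicate 1 or replicate 3, and 1 gene passed without PD krill oil replicate 1. F49E12.10 was higher without overlap at 0.73 (adjusted p = 0.121, and 0.00235 by DESeq2), and drd-1 stood at 0.37 (adjusted p = 0.198). At day 1 and day 3, drd-1 (-0.14 and 0.04) and F49E12.10 (0.28 and 0.88) had no adjusted p under 0.05 between the strains, the smallest being 0.0659 for F49E12.10 at day 3.

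Change with age in animals on krill oil is given as log2 fold changes and was not tested. Between day 1 and day 3, pud-3 stood at -2.41 on the log2 scale in PD animals and -2.63 in wild type animals, and pud-4 at -1.83 and -2.32, without overlap of the ages. The values of drd-1 were smaller, at -0.54 in PD animals and -0.72 in wild type animals. Between day 3 and day 6, pud-3 stood at 1.16 in PD animals and -0.92 in wild type animals, and dod-23 at 0.78 and 0.13. The day 3 low of pud-3 and pud-4 in PD animals with krill oil thus met the day 3 high of PD controls.

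Likeness of pattern was measured as Pearson's r of mean log2 CPM over the 12 groups, among 12320 genes with a mean of at least 1 CPM. The groups share the 3 ages, the diets and the strains, so the values describe these groups only. The gene most like pud-3 was pud-1.1 (r = 0.983), followed by pud-2.2 (0.977), the lipid-binding protein gene lbp-7 (0.939), pud-4 (0.936) and F58B4.5 (0.912). The genes most like pud-4 were pud-3 (0.936), Y105C5B.9 (0.927), pud-1.1 (0.907), the C-type lectin gene clec-84 (0.878) and F58B4.5 (0.873).

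The genes most like drd-1 were the UDP-glucuronosyltransferase gene ugt-1 (0.930), WBGene00020992 (0.920), the glutathione S-transferase gene gst-13 (0.915), cTel55X.1 (0.914) and the patched-related gene ptr-24 (0.909), whereas its neighbour F49E12.10 came at rank 9 (0.899). The 5 genes most like F49E12.10 were acox-1.6 (0.977), an acyl-CoA oxidase gene, pmp-4 (0.974), a peroxisomal ABC transporter gene, spl-2 (0.965), a sphingosine phosphate lyase gene, cpt-5 (0.959), and the cytochrome P450 gene cyp-34A7 (0.951), with drd-1 at rank 29. At day 1, cpt-5 averaged 99.1 ± 15.4 CPM in PD animals with krill oil, against 20.6 ± 0.889 CPM in PD controls, and acox-1.6 averaged 25.3 ± 4.64 CPM against 6.29 ± 0.621 CPM (SD, n = 3 each). All 5 of these genes had their highest value of wild type controls at day 3 in replicate 3, the library in which F49E12.10 stood out. They were picked on group means that include this library, so this is no separate evidence. Of the genes listed for drd-1, ugt-1, gst-13, cTel55X.1 and ptr-24 were also highest in it, whereas WBGene00020992 was not. The F-box gene fbxa-156 (0.935) was most like dod-23, followed by ugt-54 (0.925), WBGene00008038 (0.922), the cytochrome P450 gene cyp-37B1 (0.921) and the C-type lectin gene clec-82 (0.918). Among the chosen genes, dod-23 had r = 0.21 with pud-3, 0.44 with pud-4, -0.32 with drd-1 and -0.05 with F49E12.10, so its pattern was apart from those of its chromosome II neighbours.

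Genes with related names were counted in controls at day 6, where 81.5% of all genes differed between the strains (44.3% lower in PD animals), so counts of most of a list are close to that share. There, 2 of the 2 other PUD genes with enough counts were lower in PD animals than in wild type animals (pud-1.1 at -2.56, edgeR adjusted p = 2.93e-05, and pud-2.2 at -3.07, adjusted p = 1.22e-06), a list median of -2.82 against -0.15 over all genes. Of the 7 other dod genes tested there, 5 were higher and 1 was lower, with a median of 0.42, and of the 3 other drd genes 1 was higher and 1 lower, with a median of -0.10. Of 13 DAF-16 target genes, 6 were higher and 6 lower, with a median of -0.23. For krill oil against control at day 1, the medians were 3.15 in PD animals and 3.52 in wild type animals for the 4 PUD genes, -0.03 and 0.00 for the other dod genes, 0.69 and 0.57 for the other drd genes, and -0.19 and -0.01 for DAF-16 targets. The PUD medians include pud-1.2 and pud-2.1, which passed the filter on low counts through krill oil libraries. The order of the lists differed at other ages. In PD animals at day 3, krill oil over control had a median of -0.03 for 3 PUD genes and 1.03 for 7 dod genes, and in wild type animals at day 6 it had a median of -0.84 for 3 PUD genes and 1.28 for 3 drd genes. In wild type controls at day 3 over day 1, 0 of 2 PUD genes were called by edgeR (median 0.36) and 3 of 7 dod genes were higher (median 1.45).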

How the data were processed

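Whole-animal RNA of 36 libraries was measured by the authors with ribosomal RNA depletion, alignment to WBcel235 (release 96) with STAR 2.7.10a and removal of duplicates by molecular identifiers. The deposited files hold whole-number counts per gene, not normalized. The counting program and its strand setting are not given in the sources used here. The 5 genes and all lists were chosen with earlier results of these data known.

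Counts were filtered with filterByExpr, scaled by TMM and tested with edgeR 4.0.16 (quasi-likelihood test, R 4.3.3) in the libraries of each comparison alone, and a gene was called at a Benjamini-Hochberg adjusted p under 0.05 at any fold change. Standard errors are the log2 fold change divided by the square root of F. Log2 CPM used a prior count of 2. Scripts were tested on simulated data. Named are the 5 genes, PUD, dod and drd relatives, protein-coding neighbours within 10 kb and the 5 genes most similar to each. Positions are from annotation release 115, which holds 46603 of the 46778 identifiers. The gene pud-2.1 was named by position. Alternatives were DESeq2 1.42.0, RLE factors, no filter beyond all-zero genes, a replicate block, 1 fit of all libraries, and each library left out.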

Additional observations from a re-analysis of the deposited data

Results flagged for a closer look

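The change of level between day 3 and day 6 differed between PD and wild type controls by the edgeR test of that difference for pud-3 (-3.17 on the log2 scale), pud-4 (-2.40) and dod-23 (-1.11). In that test 79.3% of all genes passed, with a median of -0.33, so 3 of 5 is no more than is usual. The other results here were picked because all libraries of a group moved one way under a contrast and all libraries of another group moved the opposite way, and these differences were not tested. The share of all genes that would be picked in this way was not counted, so the picks do not set these genes apart. Between the strains at day 6, krill oil over control went in opposite directions for pud-3 (3.46 in PD animals and -0.89 in wild type animals) and for pud-4 (2.24 and -0.81). Between ages in wild type animals, krill oil over control stood at 4.06 at day 1 and -0.89 at day 6 for pud-3, and at 4.65 at day 1, 0.82 at day 3 and -0.81 at day 6 for pud-4. For dod-23 it stood at 1.05 at day 1 and -1.24 at day 3 in PD animals, and at 1.55, -1.01 and -1.68 at day 1, 3 and 6 in wild type animals. Between the diets at day 6, PD over wild type stood at 1.54 with krill oil and -2.72 in controls for pud-3, at 1.32 and -1.65 for pud-4, at 0.73 and -1.03 for F49E12.10, and at 0.56 and -1.02 for dod-23. Contrasts in this paragraph share control or krill oil libraries with each other.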

How the results depend on the processing

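The 5 genes, the 12 tested comparisons and the alternatives made 720 combinations, of which 625 kept direction and call, 39 lost a call, 38 gained one and 18 turned direction. Of 330 such values of krill oil over control, 325 moved by less than 1 SD between replicates. The number of the 5 genes called moved by over 1.5 times as follows, and the cause was not tested. With only all-zero genes removed it was 5 in place of 3 for wild type controls at day 6 over day 3, 1 in place of 0 for strain in controls at day 1, 4 in place of 1 for strain in controls at day 3, 2 in place of 1 and 5 in place of 3 for strain with krill oil at day 3 and day 6, and 3 in place of 0 for the difference between strains in the change from day 1 to day 3. By DESeq2 it was 1 in place of 0 for strain in controls at day 1, and with all 36 libraries in 1 fit it was 0 in place of 1 for strain with krill oil at day 3. Smaller moves, of 1 gene each, included DESeq2 for wild type controls at day 6 over day 3 and strain with krill oil at day 1 (2 in place of 3 in both), and for strain with krill oil at day 6 and the difference between strains from day 3 to day 6 (4 in place of 3 in both). For wild type controls at day 6 over day 3 the count was 4 with RLE factors, the block or 1 fit of all libraries.

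Same-numbered replicates showed no clear sign of deviating together (correlations of -0.169 to 0.283 over 20 comparisons, 33 of 120 samples correlating best with their own number). The samples were therefore not paired by number in the main fits. With 3 libraries per group, these correlations cannot exclude a culture or batch shared by same-numbered replicates. With the replicate block, 8 of 60 values changed their call or their direction, the count was 1 in place of 2 for wild type controls at day 3 over day 1, 1 in place of 0 and 2 in place of 1 for strain in controls at day 1 and day 3, and 1 in place of 3 for strain with krill oil at day 6, and the F49E12.10 value for the difference between strains from day 3 to day 6 was -0.204.

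Leaving out 1 library, the count was 1 to 2 for wild type controls at day 3 over day 1, 3 to 5 at day 6 over day 3, 0 to 1 and 0 to 4 for strain in controls at day 1 and day 3, 0 to 3, 1 to 3 and 0 to 2 for strain with krill oil at day 1, 3 and 6, and 0 to 2 for the difference between strains from day 1 to day 3. Log2 fold changes whose direction turned spanned, for wild type controls at day 3 over day 1, -0.143 to 0.864 (pud-3), -0.142 to 0.464 (drd-1) and -0.614 to 2.36 (F49E12.10), and at day 6 over day 3, -1.77 to 1.24 (F49E12.10). For strain in controls they spanned -0.147 to 0.473 (drd-1) and -0.126 to 0.436 (F49E12.10) at day 1, -1.72 to 1.26 (F49E12.10) and -0.0139 to 0.149 (dod-23) at day 3, and -0.158 to 0.0553 (drd-1) at day 6. For strain with krill oil at day 3 drd-1 spanned -0.0975 to 0.152, and for the difference between strains F49E12.10 spanned -1.91 to 1.05 from day 1 to day 3 and -2.30 to 0.716 from day 3 to day 6. The strain difference of drd-1 in controls at day 6 was 0.0438 when RLE factors were used, 0.128 by DESeq2 and 0.016 when genes with low counts were kept.

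Over all genes, the number called moved by over 1.5 times for wild type controls at day 3 over day 1 (2160, and 909 with the block or 4198 in 1 fit of all libraries), for strain in controls at day 1 (967, and 1459 or 2604 with only all-zero genes removed or in 1 fit) and for strain with krill oil at day 1 (480, and 1733, 1294 or 122 with only all-zero genes removed, in 1 fit or with the block), day 3 (2002, and 3186 with only all-zero genes removed) and day 6 (179, and 285, 599 or 588 by DESeq2, with only all-zero genes removed or in 1 fit). Leaving out 1 library, these counts ranged over 785 to 3866, 191 to 1951, 137 to 613, 1068 to 3047 and 61 to 225 in that order, and that of the difference between strains from day 1 to day 3 (2279) over 1379 to 2439, so the shares of all genes given beside the calls are uncertain in these comparisons. Depth limited F49E12.10 most, which had 14 counts in PD control day 6 replicate 3.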
